A study of Macaca mulatta with 449 samples.

Results

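The superior temporal gyrus (STG, region 26 of the dissection) was compared with the inferior temporal gyrus (ITG, region 25) of the rhesus macaque. Samples were taken by their region number, which gave 8 STG and 8 ITG samples, 1 of each from every animal, or 16 of the 408 RNA-seq samples with gene counts and of the 449 labelled samples of the series. The animals were healthy, untreated rhesus macaques, with no genotype or strain named in the labels. Of the 8 animals, 4 were male and 4 female, and 4 were young (3.2 to 5 years) and 4 mid-aged (9.8 to 10 years), and each sex had young and mid-aged animals. Animals are called by their numbers in the labels, 2, 3, 4, 6, 7, 8, 10 and 11. Every sample was a small block of tissue dissected by anatomical landmarks, so that all cortical layers and some white matter could enter it, and total RNA was sequenced after removal of ribosomal RNA.

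The STG lies below the lateral sulcus and holds the auditory cortex with the association areas around it. The ITG holds the late stages of the ventral visual stream, in which neurons respond to complex shapes, objects and faces. Both are six-layered neocortex, built of the same classes of glutamatergic neurons, GABAergic interneurons and glia. The comparison asks which genes separate these gyri of the same lobe in the same animals. The labels name the gyri, not an auditory or visual area within them.

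Library totals were 8867963 to 13825381 counts in STG (median 9240547) and 9033048 to 14551164 in ITG (median 10095476), and 14210 genes passed the filter on low counts. Levels are given as CPM (counts scaled to a common library size), and a gene was called at a false discovery rate (FDR) below 0.05 in an edgeR quasi-likelihood test with the animal as a block. The ITG sample of animal 11 stood farthest from the other samples of its region, with a median correlation of 0.949 with them, against 0.955 to 0.977 for the other ITG samples and 0.962 to 0.975 for the STG samples. The SD over genes of the log2 difference between STG and ITG was 0.593 in animal 11 and 0.307 to 0.436 in the other 7 animals. Values without animal 11 are therefore given beside the counts of the direct comparison and of the contrasts with the other cortical sub-regions.

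STG and ITG differed in few genes. Of the 14210 genes, 18 were called (0.127%), 5 of them higher in STG (0.0352%) and 13 higher in ITG (0.0915%). A fold above 2 was reached by 5 of the 18, all higher in ITG, among them the neuropeptide gene CARTPT, the tight junction gene CLDN20, the natriuretic peptide receptor gene NPR1 and the retinoic acid-degrading CYP26B1. Each of the 18 genes lay on the same side in 8 of 8 animals, as did 113 genes higher in STG (0.795%) and 99 higher in ITG (0.697%) among all genes tested. The median log2 fold change (log2FC, STG over ITG) of all genes was 0.0079. Without animal 11, 53 genes were called (0.373%), 22 higher in STG (0.155%) and 31 higher in ITG (0.218%), and they held all 18. Leaving out any 1 of the other animals gave 4 (without animal 7) to 12 (without animal 8) calls. Calls higher in STG numbered 0 without animal 2, 6, 7 or 10 and 1 without animal 4. They numbered 3 without animal 3, 4 without animal 8 and 0 in a fit without the animal block. Not all of these were among the 18: of all calls, 10 of 11 were without animal 3 and 11 of 12 without animal 8. The Wald test of DESeq2 called 58 genes, 34 higher in STG and 24 higher in ITG, which held 17 of the 18.

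**Figure D1:**
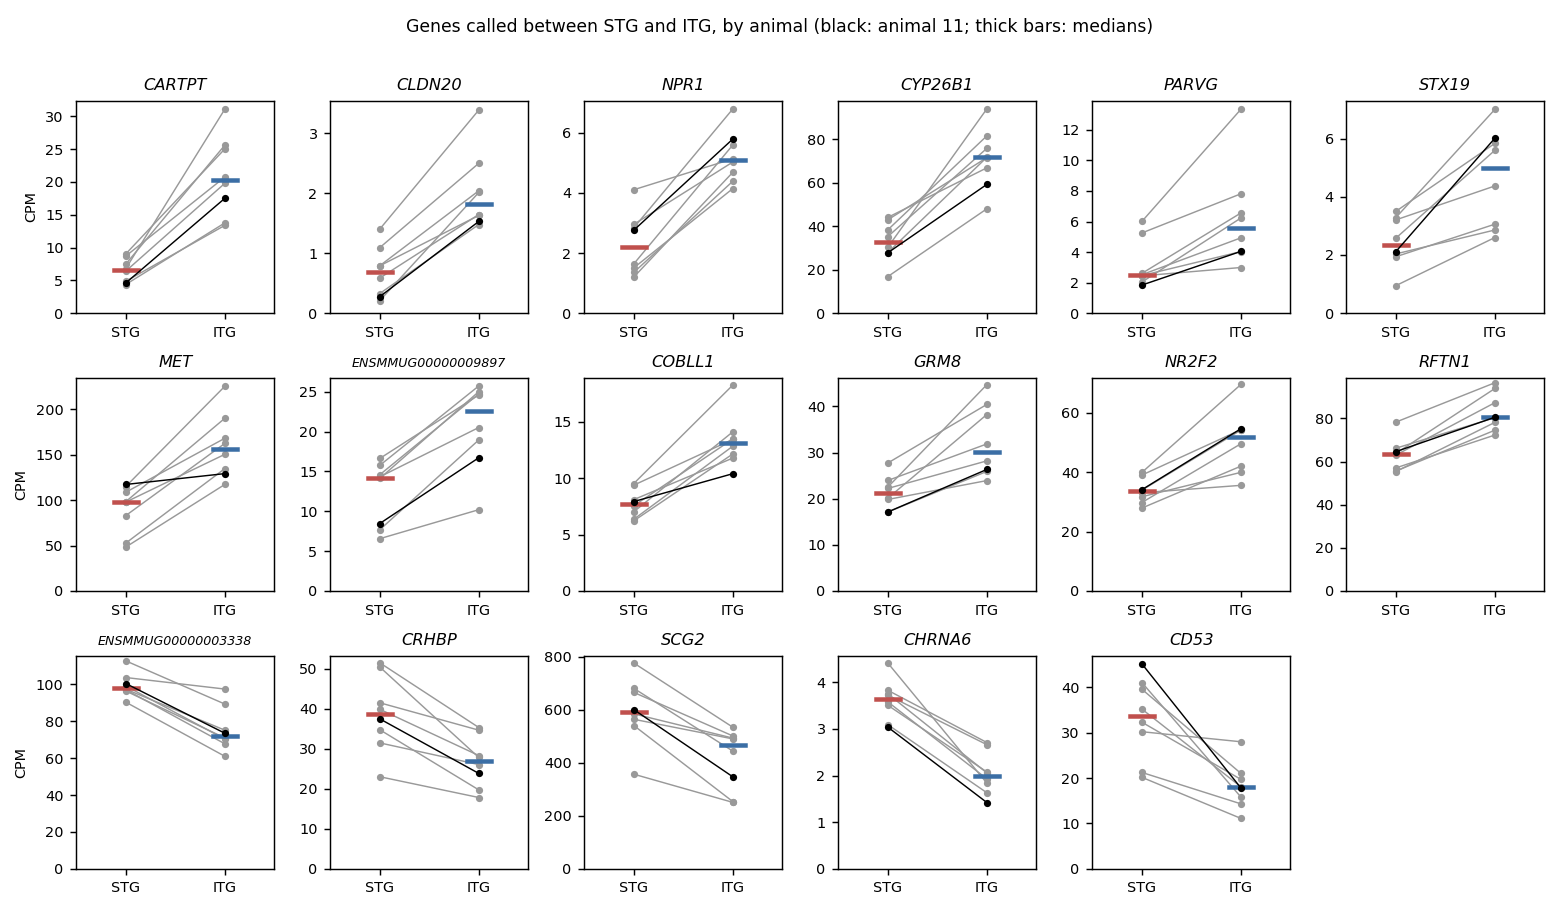
Levels of 17 of the 18 called genes in CPM (vertical axes from 0) in STG and ITG, with 1 line per animal, animal 11 in black and the median of each region as a thick bar. The 12 genes from CARTPT to RFTN1 rose from STG to ITG in every animal, and the 5 from ENSMMUG00000003338 to CD53 fell in every animal.

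CARTPT, which encodes the precursor of the CART neuropeptides, had the largest difference of the called genes. Its level was 4.37 to 9.03 CPM in STG (median 6.60) and 13.4 to 31.1 CPM in ITG (median 20.3). All ITG samples lay above all STG samples. It was 3.16-fold higher in ITG (log2FC -1.66 ± 0.11 SE, FDR = 1.09e-05, n = 8 animals). Groups that did not overlap were found for 5 genes higher in ITG (0.0352%) and 3 higher in STG (0.0211%) of all genes tested.

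CYP26B1, a cytochrome P450 that breaks down retinoic acid, was at 16.9 to 44.1 CPM in STG (median 32.8) and at 48 to 94 CPM in ITG (median 71.6). The groups did not overlap, and ITG was 2.19-fold higher (log2FC -1.13 ± 0.11, FDR = 0.000333). Of the 19 listed genes of retinoic acid synthesis, binding, breakdown and response, 16 were tested and CYP26B1 was the one called. The other 15 included the synthesising enzymes ALDH1A1 (log2FC 0.05 ± 0.09, FDR = 0.995), ALDH1A2 (0.04 ± 0.24, FDR = 0.997) and ALDH1A3 (0.07 ± 0.24, FDR = 0.996), and the receptor RARB (-0.18 ± 0.11, FDR = 0.938). CBLN2, a synapse organiser listed as responsive to retinoic acid, was at 158 CPM in STG and 123 CPM in ITG on average (log2FC 0.39 ± 0.10, FDR = 0.303). The median log2FC of the 16 genes was 0.08.

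A glutamate receptor and a growth factor receptor were also higher in ITG. GRM8, a presynaptic metabotropic glutamate receptor, was at 17.1 to 27.7 CPM in STG (median 21.2) and 23.9 to 44.7 CPM in ITG (median 30.0). Its ITG samples were mostly above the STG range, with a fold of 1.51 (log2FC -0.59 ± 0.09, FDR = 0.0216). MET, the receptor tyrosine kinase for hepatocyte growth factor, was at 48.3 to 117 CPM in STG (median 98.0) and 117 to 225 CPM in ITG (median 156). The highest STG sample and the lowest ITG sample lay at nearly the same level, and ITG was 1.81-fold higher (log2FC -0.86 ± 0.11, FDR = 0.00763).

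NPR1, the receptor guanylyl cyclase for atrial and brain natriuretic peptides, ranged from 1.2 to 4.11 CPM in STG (median 2.20) and from 4.15 to 6.79 CPM in ITG (median 5.08). These ranges met without overlap, and the fold was 2.33 (log2FC -1.22 ± 0.18, FDR = 0.0181). NR2F2, the nuclear receptor COUP-TFII, is a factor of cortical patterning and of interneurons from the caudal ganglionic eminence. Its level was 27.9 to 39.9 CPM in STG (median 33.5) and 35.5 to 69.4 CPM in ITG (median 51.8), with overlap at the low end of ITG, and ITG was 1.46-fold higher (log2FC -0.55 ± 0.08, FDR = 0.0197).

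Genes of the cell surface, cytoskeleton and membrane made up the rest of the named genes higher in ITG. COBLL1, an actin-binding protein, was at 6.21 to 9.52 CPM in STG (median 7.73) and 10.4 to 18.2 CPM in ITG (median 13.1), without overlap (1.71-fold, log2FC -0.77 ± 0.10, FDR = 0.0093). RFTN1, a lipid raft protein, was at 55.4 to 78.3 CPM in STG (median 63.4) and 72.3 to 96.6 CPM in ITG (median 80.5), with 1.32-fold more in ITG (log2FC -0.40 ± 0.06, FDR = 0.0181). PARVG, an adhesion adaptor of blood cells, was at 1.84 to 6.00 CPM in STG (median 2.49) and 2.99 to 13.3 CPM in ITG (median 5.58). Its groups overlapped through the STG samples of animals 6 (6.00 CPM) and 7 (5.25 CPM), the animals that also had the highest ITG levels. The fold was 1.94 (log2FC -0.96 ± 0.15, FDR = 0.0222). STX19, a syntaxin, was at 0.948 to 3.5 CPM in STG and 2.60 to 7.00 CPM in ITG (1.89-fold, log2FC -0.92 ± 0.16, FDR = 0.0402). CLDN20, a claudin of tight junctions, was at 0.211 to 1.40 CPM in STG and 1.48 to 3.39 CPM in ITG (2.98-fold, log2FC -1.58 ± 0.24, FDR = 0.0196). Both are near the lower end of what these libraries can measure, and CLDN20 had the widest error of the 18 genes. ENSMMUG00000009897, which has no symbol in the name table, was 1.72-fold higher in ITG (12.3 CPM ± 4.01 SD in STG, 20.8 ± 5.41 in ITG, n = 8 each, FDR = 0.0054).

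The 5 genes higher in STG were SCG2, CRHBP, CHRNA6, CD53 and a gene without a symbol. SCG2, secretogranin II of dense core vesicles, was at 357 to 777 CPM in STG (median 593) and 251 to 534 CPM in ITG (median 467). STG was 1.46-fold higher (log2FC 0.55 ± 0.09, FDR = 0.0222), with ranges that overlapped between animals. CRHBP, which binds and sequesters corticotropin-releasing hormone, was at 23 to 51.5 CPM in STG (median 38.7) and 17.8 to 35.3 CPM in ITG (median 26.9), and was 1.45-fold higher in STG (log2FC 0.53 ± 0.09, FDR = 0.0222). For comparison, the hormone gene CRH itself was at 39.5 CPM in STG and 34.1 CPM in ITG on average and was not called (log2FC 0.23 ± 0.11, FDR = 0.871). CHRNA6, a nicotinic acetylcholine receptor subunit, was low but separated the groups fully, at 3.04 to 4.41 CPM in STG (median 3.65) and 1.42 to 2.71 CPM in ITG (median 1.99). It was 1.78-fold higher in STG (log2FC 0.83 ± 0.15, FDR = 0.0455). The call was lost with DESeq2 (FDR = 0.0658), with another filter on low counts (FDR = 0.0508), without the animal block (FDR = 0.172) and without any 1 of the animals other than 11. ENSMMUG00000003338, also without a symbol, was 1.33-fold higher in STG (99.7 CPM ± 6.52 SD against 75.7 ± 11.9, FDR = 0.0216).

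CD53, a tetraspanin of leukocytes, was at 20.2 to 45.2 CPM in STG (median 33.8) and 11.1 to 28 CPM in ITG (median 17.9). Every animal had more in STG, but the ranges overlapped, and the fold was 1.81 (log2FC 0.86 ± 0.12, FDR = 0.0181). The 5 tested markers of microglia, the resident immune cells of the brain, summed to 62.2 to 113 CPM in STG and 57.7 to 100.2 CPM in ITG and were higher in STG in 6 of 8 animals. None of these 5 was called by edgeR or DESeq2 (0 at an unadjusted p below 0.05), and P2RY12 (log2FC 0.06 ± 0.12) and CSF1R (0.02 ± 0.12) were at nearly equal levels. In bulk tissue, fewer cells of a type and less RNA per cell cannot be told apart, and the part of microglia in the CD53 difference was not tested.

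**Figure D2:**
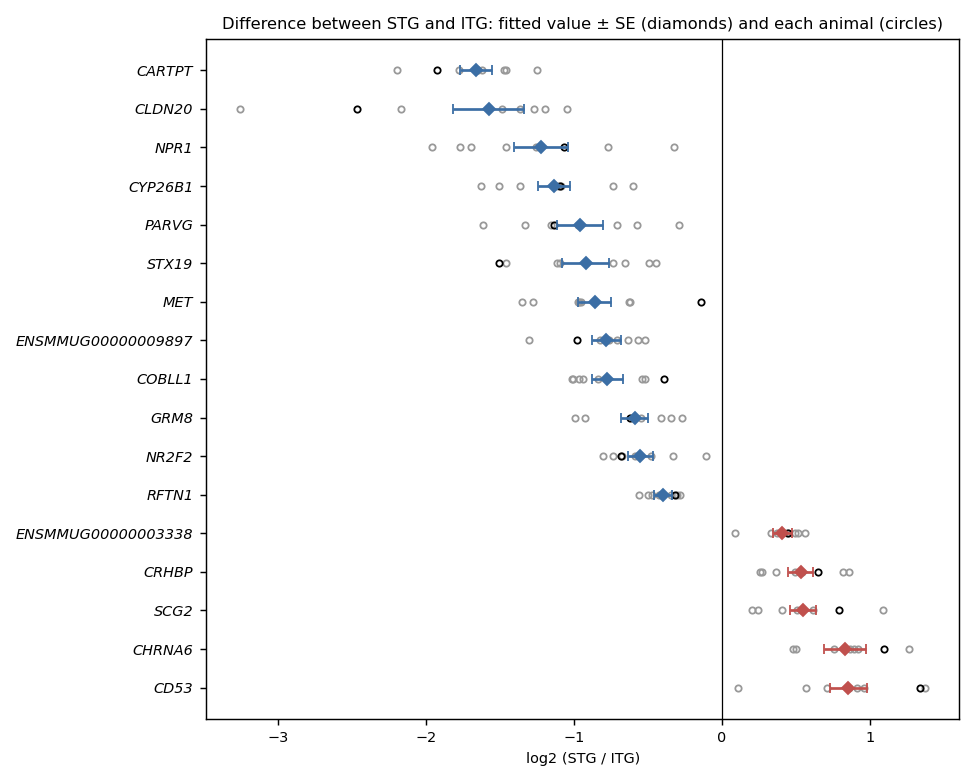
Fitted log2 fold change of STG over ITG with its standard error (diamonds with bars) for 17 of the 18 called genes, and the log2 ratio of CPM, without a pseudocount, in each of 8 animals (circles, animal 11 in black). All circles of a gene lie on 1 side of 0, and those of CLDN20, a gene of low level, are the most spread.

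Genes just outside the threshold included further signalling genes of STG. DRD1, the D1 dopamine receptor, was at 65.4 CPM ± 9.51 SD in STG and 46.3 ± 4.86 in ITG and higher in STG in 8 of 8 animals (log2FC 0.49 ± 0.09, FDR = 0.0794). OSTN, osteocrin, had a log2FC of 1.13 ± 0.23 (FDR = 0.0971, higher in STG in 7 of 8), and RASD1, a small GTPase, 0.40 ± 0.07 (FDR = 0.0687). On the ITG side lay UNC13B, a synaptic vesicle priming factor (log2FC -0.35 ± 0.07, FDR = 0.0762), and GRB14, an adaptor of the insulin receptor (-0.53 ± 0.10, FDR = 0.0742). These genes were not called with all 8 animals and were named after their values were seen.

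Without animal 11, 35 further genes passed, and the listed genes among the calls went from 6 to 14. Those added on the ITG side were the ephrin receptors EPHA3 and EPHA7 and the potassium channel KCNH5. EPHA3 was at 17.8 CPM in STG and 31 CPM in ITG on average over 7 animals (log2FC -0.79 ± 0.11, FDR = 0.00431, against FDR = 0.15 with all 8). EPHA7 was at 40.4 and 59.7 CPM (log2FC -0.57 ± 0.07, FDR = 0.00148, against 0.132). Ephrin receptors guide axons and set topographic maps in the developing cortex. KCNH5 was at 15.1 and 23.2 CPM (log2FC -0.60 ± 0.11, FDR = 0.0341, against 0.638). Those added on the STG side were the heavy neurofilament NEFH (log2FC 0.44 ± 0.09, FDR = 0.0395, against 0.142), the secreted neuronal peptide precursor VGF (0.45 ± 0.09, FDR = 0.0387, against 0.136), DRD1 (FDR = 0.0395), OSTN (FDR = 0.0468) and the thyroid hormone-binding CRYM (0.63 ± 0.12, FDR = 0.0341, against 0.113). CD52, a surface gene of lymphocytes named after its values were seen, passed as well, at 4.23 CPM in STG and 1.79 CPM in ITG (log2FC 1.19 ± 0.23, FDR = 0.0387, against 0.113).

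Listed genes of neuron classes, layers, signalling and cell types are described by their counts. The 30 lists named 560 genes, of which 472 were matched by symbol and 423 tested. With all 8 animals 6 of the 423 were called (1.42%), CARTPT, CYP26B1, NR2F2 and GRM8 higher in ITG and SCG2 and CHRNA6 higher in STG. At an unadjusted p below 0.05 there were 67 (15.8%), of which 40 were higher in STG and 27 in ITG. Of all 14210 genes there were 840 (5.91%), 422 higher in STG (2.97%) and 418 in ITG (2.94%). The lists were chosen with earlier results of these data known, so these shares are no test of the listed genes. In lists without an edgeR call, DESeq2 called the cadherin CDH6 with EPHA3 and EPHA7, NEFH, OSTN, the deep-layer genes FOXP2 and CRYM, and DRD1, and it called none in the other such lists.

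Neuropeptide genes, whose products regulate excitability and some of which mark interneuron subtypes, had the largest list median. Of 27 listed genes 18 were tested, 14 had a positive log2FC, and the median was 0.26. CARTPT, the member of largest difference, went the other way. SST, which marks dendrite-targeting interneurons, was at 93.3 to 201 CPM in STG (median 128) and 59.1 to 154 CPM in ITG (median 98.6). Its level was greater in STG in 8 of 8 animals but edgeR did not call it (log2FC 0.44 ± 0.10, FDR = 0.178), while DESeq2 did. DESeq2 also called VGF and OSTN in this list, beside CARTPT and SCG2. Cholecystokinin, CCK, had a log2FC of 0.37 ± 0.12 (FDR = 0.449), and VIP, of disinhibitory interneurons, 0.14 ± 0.13 (FDR = 0.968).

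Among interneuron subtype genes, 18 of 22 tested had a positive log2FC, with a median of 0.18 beside 0.0079 for all genes. NR2F2 was the one called by edgeR, in the opposite direction. The list overlaps with the neuropeptide genes, with SST in both, so the list medians are not independent. GAD1, the main GABA-synthesising enzyme, was at 482 CPM in STG and 431 CPM in ITG (log2FC 0.17 ± 0.06, FDR = 0.638). The medial ganglionic eminence factor LHX6 had a log2FC of 0.23 ± 0.08 (FDR = 0.617) and the calcium-binding CALB2 0.50 ± 0.22 (FDR = 0.837). Of the fast-spiking interneuron genes 14 were tested and none called by edgeR or DESeq2 (3 at an unadjusted p below 0.05, all higher in STG), with PVALB at 0.11 ± 0.14 (FDR = 0.984). Beside these values, the summed level of 10 pan-neuronal markers was 15338 to 17167 CPM in STG and 15886 to 18097 CPM in ITG and lower in STG in 7 of 8 animals, with a median ratio of 0.953. Its part in the interneuron values was not tested.

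Layer genes leaned both ways. Deep-layer neuron genes had 16 of 24 tested members with a negative log2FC and a median of -0.08. FOXP2, a factor of layer 6 neurons, was at 25.4 CPM in STG and 37.0 CPM in ITG (log2FC -0.56 ± 0.13, FDR = 0.178), while CRYM was higher in STG in 7 of 8 animals (0.58 ± 0.12, FDR = 0.113). Of 12 upper-layer genes tested 8 had a positive log2FC, with a median of 0.08 (-0.00025 without animal 11) and CARTPT as the one called. Layer 4 genes, which mark the layer of thalamic input, had a median of -0.14 over 8 genes and no call by either tool (0 at an unadjusted p below 0.05).

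Receptor, channel and guidance genes had list medians close to that of all genes. Neuromodulator receptors had 42 members tested, CHRNA6 called and a median of 0.06. Among the other nicotinic subunits, CHRNB2 was at 122 CPM in STG and 145 CPM in ITG (log2FC -0.25 ± 0.07, FDR = 0.273) and CHRNA3 at 1.43 and 2.84 CPM (-0.93 ± 0.29, FDR = 0.483). Glutamate receptor genes had 24 tested, GRM8 called and a median of -0.01, and GABA receptor genes 14 tested, none called by either tool (0 at an unadjusted p below 0.05) and a median of 0.05 (-0.07 without animal 11). For the listed voltage-gated channel genes, 49 were tested and none called by either tool (3 in each direction at an unadjusted p below 0.05), with a median of -0.01. Guidance and adhesion genes had 87 tested, none called by edgeR with all 8 animals (7 in each direction at an unadjusted p below 0.05), and a median of 0.0013, beside 0.0079 for all genes. Cortical patterning factors had 26 tested, NR2F2 called and a median of -0.01. At an unadjusted p below 0.05 this list had 4 genes in each direction, beside 5.91% of all genes, so its median joins members of opposite direction. Immediate early genes, which mark recent neuronal activity, had 14 tested and heat shock genes 6, and in both lists edgeR and DESeq2 called 0, with 0 at an unadjusted p below 0.05.

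**Figure D3:**
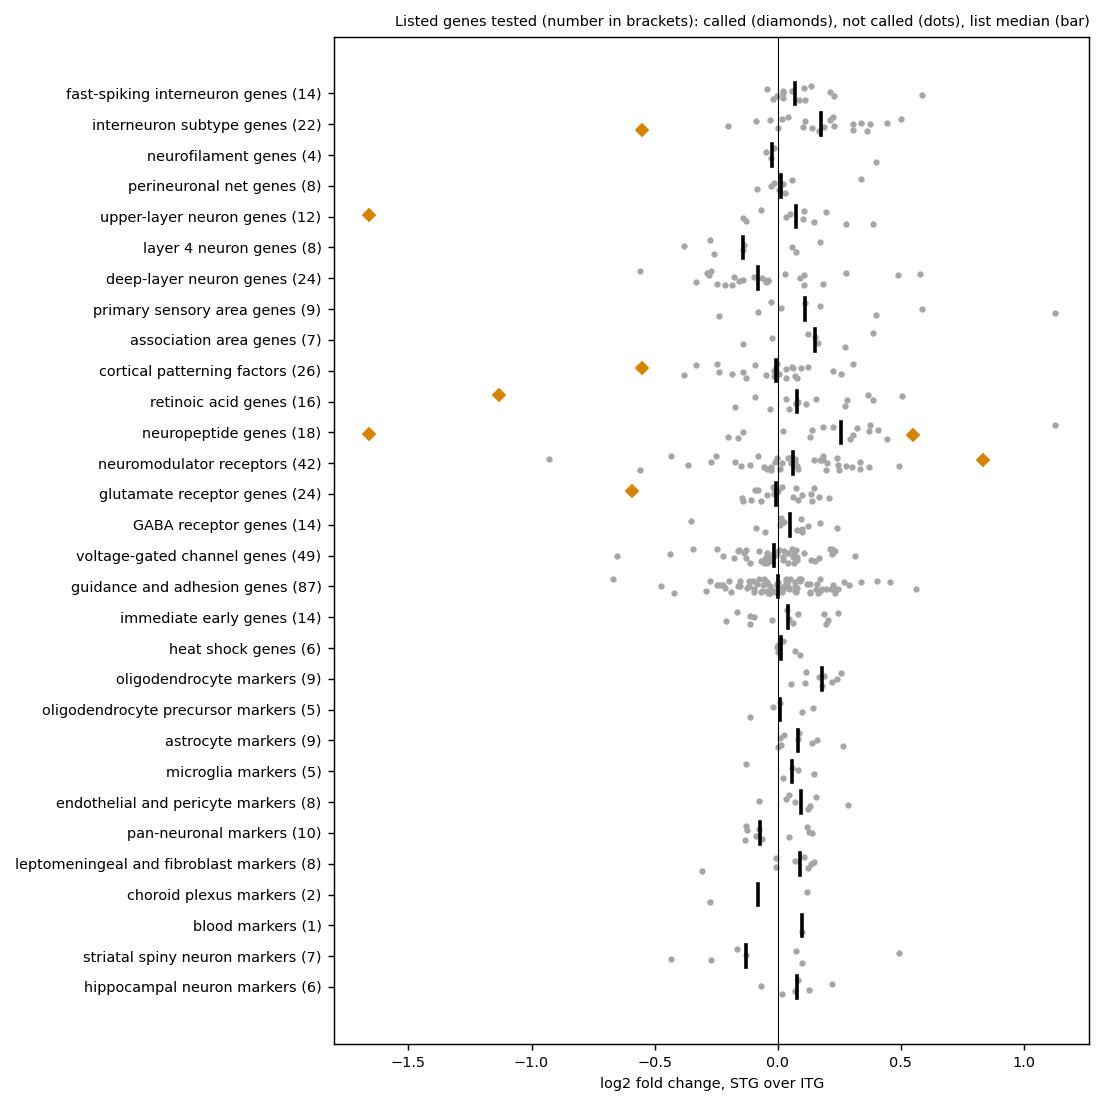
Log2 fold change of STG over ITG for every tested member of the 30 gene lists (dots, called genes as diamonds) with each list's median as a bar and the number tested in brackets. A gene in 2 lists appears in both, and most list medians lie close to 0, with that of the neuropeptide genes farthest to the right.

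Marker sums of other cell types went both ways between animals. Oligodendrocyte markers were higher in STG in 5 of 8 animals, with ratios of 0.755 to 1.59 and a median ratio of 1.28. Astrocyte markers were higher in STG in 5 of 8 (0.832 to 1.59, median 1.04). Endothelial and pericyte markers were so in 5 of 8 (0.856 to 1.35, median 1.05). No member of these lists was called by either tool (1 in each list at an unadjusted p below 0.05 with edgeR). A positive log2FC was found for 9 of 9 oligodendrocyte and 9 of 9 astrocyte markers. The list medians were 0.18 for oligodendrocyte markers (0.20 without animal 11) and 0.08 for astrocyte markers (0.02 without animal 11). In animal 11 the astrocyte ratio was 1.59 and the pan-neuronal ratio 0.886, the ends of the range for both. The listed striatal genes summed to more in STG in 8 of 8 animals (ratios 1.0 to 1.2), which included DRD1, while their median log2FC was -0.13 (0.11 without animal 4) and DRD2 had -0.44 ± 0.21 (FDR = 0.848). Markers of blood and choroid plexus summed to at most 12.7 and 13.4 CPM in any sample. The choroid plexus sum was lower in STG in 7 of 8 animals (median ratio 0.850), and 2 of its genes passed the filter on low counts.

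**Figure D4:**
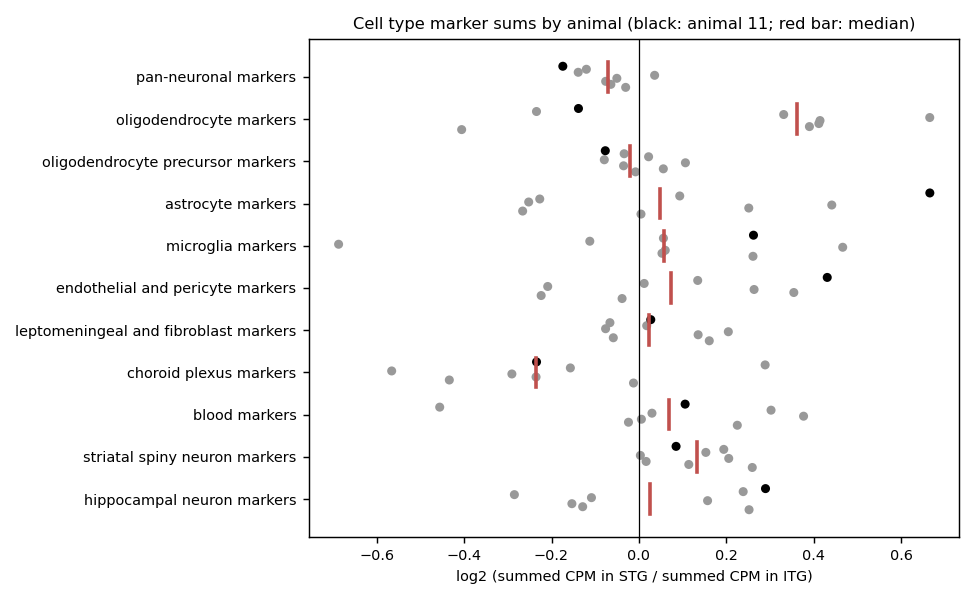
Log2 ratio of the summed CPM of cell type markers in STG over ITG, with 1 point per animal, animal 11 in black and the median as a red bar. Pan-neuronal sums lie left of 0 in 7 of 8 animals, the striatal sums lie right of 0 in 8 of 8, and the glial and vascular sums spread on both sides.

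The called genes were then placed among all 31 cortical sub-regions of the same animals, in a fit over 15981 genes. STG differed from the mean of the other 29 sub-regions in 455 genes (2.85%), 317 higher (1.98%) and 138 lower (0.864%), and ITG in 832 genes (5.21%), 549 higher (3.44%) and 283 lower (1.77%). Without animal 11 the counts were 332 in STG (244 higher and 88 lower) and 1191 in ITG (657 higher and 534 lower). The fold was above 2 for 36 of these genes in STG (0.225%) and 57 in ITG (0.357%). These contrasts use the same STG and ITG samples as the direct comparison, so the values stand side by side and are not independent of it.

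MET varied 35.9-fold between the sub-regions with the highest and lowest mean, from 161 CPM in ITG to 4.48 CPM in the posterior superior frontal gyrus. ITG ranked 1st of 31 and STG 11th, and both were above the mean of the 29 (log2FC 2.17 ± 0.11, FDR = 3.78e-45 in ITG, and 1.27 ± 0.12, FDR = 5.29e-16 in STG). CARTPT varied 98.1-fold, highest in the temporal polar gyrus (TPG, 30.5 CPM), with ITG 2nd and STG 12th, and was lowest in the superior precentral gyrus (0.311 CPM). CYP26B1 was 1st in ITG (71.9 CPM) and 9th in STG (33.3 CPM), with TPG at 59.3 CPM and the occipito-temporal gyrus (OTG) at 60.4 CPM between them, and it was lowest in the anterior cingulate gyrus (6.93 CPM).

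GRM8 and CLDN20 also had their highest mean in ITG, and PARVG, COBLL1, NR2F2 and RFTN1 their second highest. For GRM8 the difference from the 29 sub-regions was in ITG (log2FC 0.59 ± 0.08, FDR = 6.02e-09), with STG at their mean (-0.01 ± 0.09, FDR = 0.988). CLDN20 lay above the 29 in ITG (0.74 ± 0.16, FDR = 0.000715) and below them in STG (-0.83 ± 0.22, FDR = 0.0129). NPR1 ranked 9th in ITG and 17th in STG, with the highest in the lingual gyrus (11.5 CPM).

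On the STG side, CRHBP ranked 2nd of 31 in STG and 29th in ITG, and was above the 29 in STG (log2FC 0.29 ± 0.07, FDR = 0.00756) and below them in ITG (-0.24 ± 0.08, FDR = 0.0431). SCG2 and CHRNA6 ranked 3rd in STG and 20th and 17th in ITG, both with the highest mean in the ventromedial prefrontal cortex. STG was above the 29 for SCG2 (0.44 ± 0.07, FDR = 5.64e-06) and CHRNA6 (0.96 ± 0.15, FDR = 1.22e-06), whereas ITG was not called (SCG2 -0.09 ± 0.08, FDR = 0.634, and CHRNA6 0.13 ± 0.17, FDR = 0.778). CD53 stood the other way round. It was below the 29 in ITG (-1.21 ± 0.15, FDR = 7.86e-12, 29th of 31) and not called in STG (-0.35 ± 0.13, FDR = 0.149, 18th), with the posterior cingulate gyrus highest (96.1 CPM) and TPG lowest (12.9 CPM).

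**Figure D5:**
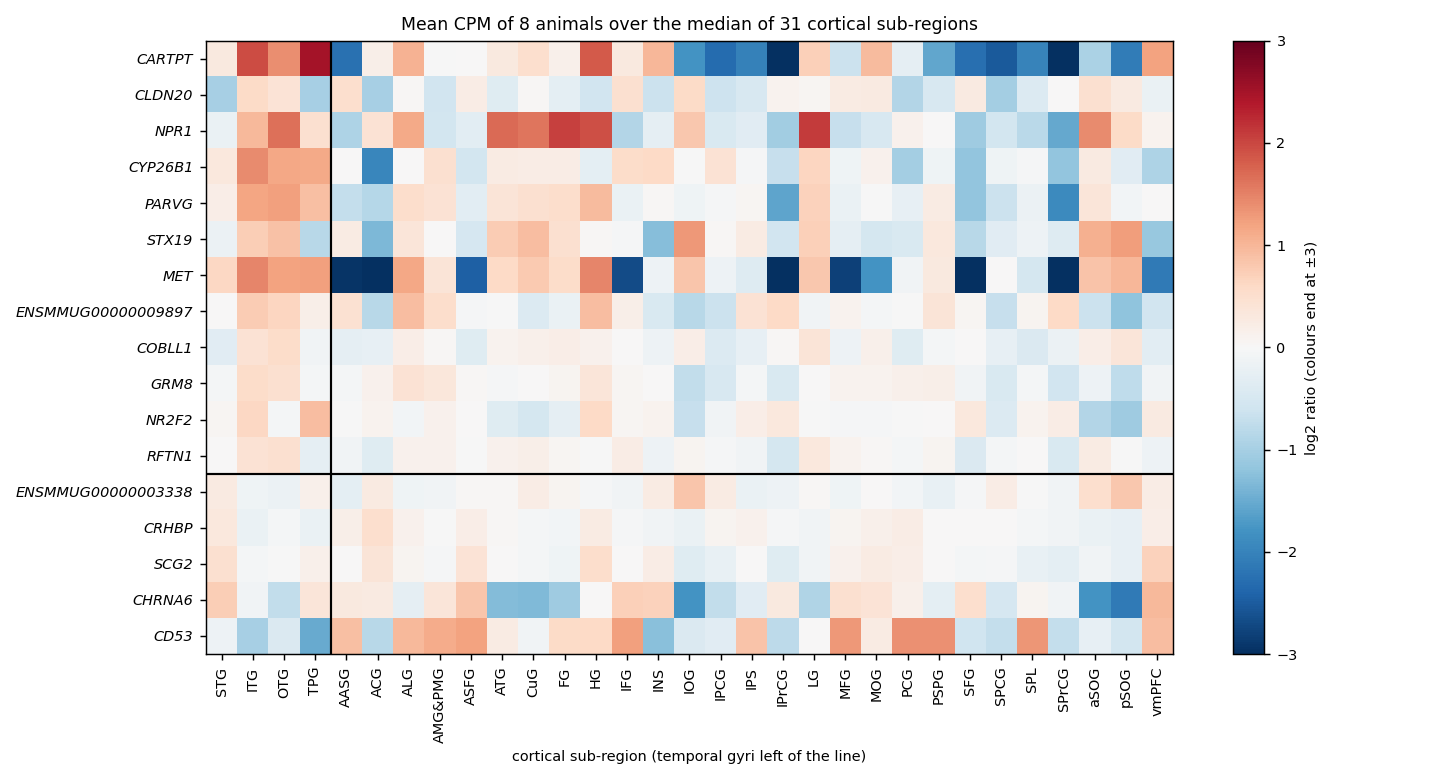
Mean CPM of 8 animals for 17 of the 18 called genes in 31 cortical sub-regions, as log2 of the ratio to each gene's median sub-region (colours end at ±3), with the 4 temporal gyri left of the vertical line and the genes higher in STG below the horizontal line. MET and CARTPT have the widest range, and the 4 temporal gyri are above the median for both.

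The neighbouring OTG and TPG gave a scale for the direct comparison. In pairwise tests of the same kind 1404 genes were called between STG and OTG (9.78%), 4680 between STG and TPG (32.6%), 133 between ITG and OTG (0.922%), 2759 between ITG and TPG (19.1%) and 6828 between OTG and TPG (47.1%). STG against ITG, with 0.127%, had the smallest count of the 6 pairs. Such a count depends on the spread between animals as well as on the size of the differences, and all 6 include animal 11. Of the 6 pairs, a count without animal 11 is given for STG against ITG alone, 53 genes (0.373%). These pairs share samples, and differences between their counts were not tested. By the correlation distance within an animal (1 minus Pearson's r over genes), STG and ITG were 0.0139 apart (median of 8 animals, range 0.0101 to 0.0297), the 33rd smallest of 465 pairs of cortical sub-regions, whose median was 0.0201. By median, ITG and OTG were nearer, at 0.0136 (25th, range 0.00937 to 0.0376), and STG and OTG were at 0.0140 (38th). Outside the temporal lobe, 2 sub-regions had a smaller median distance to STG than ITG had. They were the superior parietal lobule (0.0129, 14th, range 0.0110 to 0.0588) and the anterior/posterior marginal gyrus (0.0136, 24th, range 0.0111 to 0.0181). These ranges over animals overlapped that of STG and ITG, and the order of the medians was not tested. The largest of the 8 distances between STG and ITG was that of animal 11.

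Values against OTG and TPG are given for 6 of the called genes, chosen after they were seen. STG was below OTG for NPR1 (log2FC -1.88 ± 0.16, FDR = 1.03e-05), while ITG and OTG were not called apart (-0.63 ± 0.17, FDR = 0.109). COBLL1 gave -0.90 ± 0.08 for STG against OTG (FDR = 1.54e-05) and -0.11 ± 0.09 for ITG against OTG (FDR = 0.627). For NR2F2, ITG was above OTG (0.72 ± 0.13, FDR = 0.0276), while STG and OTG were not called apart (0.16 ± 0.10, FDR = 0.332). Against TPG, STG was lower for CARTPT (-2.20 ± 0.14, FDR = 4.14e-08) and higher for CD53 (1.34 ± 0.14, FDR = 4.22e-06). ITG was also below TPG for CARTPT (-0.53 ± 0.14, FDR = 0.0162) and above it for CD53 (0.50 ± 0.12, FDR = 0.0125). For STX19 both gyri were above TPG (ITG 1.55 ± 0.19, FDR = 0.000108, and STG 0.61 ± 0.19, FDR = 0.0215).

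Age stage and sex were tested as interactions with region. For age stage no gene was called by edgeR (192 genes, 1.35%, at an unadjusted p below 0.05) or by DESeq2 (44 genes). For sex, edgeR called none, with 2494 genes (17.6%) at an unadjusted p below 0.05 and a smallest FDR of 0.125, whereas DESeq2 called 84 and edgeR without animal 11 called 28 (0.197%). Of the 18 genes called between the gyri none had an interaction past the threshold, with FDR of 0.164 to 0.997 for sex and of 0.999985 for age stage.

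The interaction genes without animal 11 rest on 3 females and 4 males, and the 3 named here were chosen after their values were seen. CACNA1H, a T-type calcium channel, had a mean log2 difference, STG over ITG, of -0.94 in females and 0.54 in males (interaction -1.54 ± 0.23, FDR = 0.031). NEUROD6, a factor of glutamatergic neurons, had -0.32 and 0.87 (interaction -1.22 ± 0.19, FDR = 0.031). RELN, the secreted protein reelin of cortical interneurons, had 0.52 and -0.24 (interaction 0.73 ± 0.12, FDR = 0.031).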

How the data were processed

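Ribosomal RNA-depleted total RNA of 16 samples, STG and ITG of 8 animals, was analysed, with the other cortical sub-regions as context (31 sub-regions). Per the study's methods and the submitters' processing notes, the authors checked reads with FastQC 0.11.4, trimmed those of low-quality samples with Trim Galore 0.4.4, aligned reads to the rhesus macaque reference by HISAT2 2.0.5, and obtained counts for Ensembl genes by HTSeq 0.6.1. The deposited values are raw counts per gene, not normalized. The kit kept the strand, but how counting treated strand and overlaps is not given in the sources used here, so counts of overlapping genes and near-identical copies are uncertain. A table of names paired 17572 of the 30807 gene IDs with a symbol. ATAC-seq samples and assembled transcripts were not used.

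Counts were filtered with filterByExpr, normalized by TMM and tested with edgeR 4.0.16 (quasi-likelihood F test, R 4.3.3) in a model of animal and region, with Benjamini-Hochberg adjustment over all genes tested. The SE of a log2FC is its size divided by the square root of F. CPM use TMM-scaled library sizes. Age stage and sex entered 1 model as interactions with region, and the cortical contrasts came from 1 model of 31 sub-regions and animal. Pairing follows from the animal, and the deviations of same-animal samples from their region means correlated at 0.170 to 0.776. A region was dissected once per animal, so animals are the replicates. At totals of 8867963 to 14551164 counts per sample, genes near 1 CPM rest on few reads.

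Named genes are, for each direction, up to 15 called genes with a symbol, at least 1 CPM in the higher region and the same direction in all 8 animals, ordered by fold (16 genes, of which 1 is not reported here), then called list members; other list members are given by value. The regions, gene lists and rules were chosen with earlier results of these data known. Alternatives were DESeq2 1.42.0, other size factors and filters, a model without the block, a fold threshold, and leaving out each animal; leaving out animals in the interaction and cortical models was added after seeing the data. Scripts were tested on simulated data. Figures used Python 3.11.15 and matplotlib 3.10.9.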

Additional observations from a re-analysis of the deposited data

Results flagged for a closer look

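Among 88 groups of 8 values examined for a value far from the rest by Dixon's test, 6 were flagged, where chance flags about 1 in 20. In animal 11 the SD of the log2 differences between STG and ITG over genes was 0.593, against 0.307 to 0.436 in the others. The distance between its STG and ITG samples was 0.0297, against 0.0101 to 0.0187. The summed level of blood markers in its STG sample was 12.7 CPM, against 2.83 to 6.79 CPM. Its ITG sample was also the highest of its region, at 11.8 CPM against 2.43 to 6.90 CPM, but was not flagged. Of the blood markers, HBA had 24 to 134 counts per sample and no other member had more than 10.

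In single genes, PARVG was at 13.3 CPM in the ITG sample of animal 6, against 2.99 to 7.81 CPM in the other ITG samples. In animal 7, COBLL1 in ITG was at 18.2 CPM, against 10.4 to 14.1 CPM, and RFTN1 in STG at 78.3 CPM, against 55.4 to 66.2 CPM. In each of these 3 genes the flagged animal still had more in ITG than in STG.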

How the results depend on the processing

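With DESeq2 58 genes were called between STG and ITG, 34 of them higher in STG (58.6%, against 27.8% with edgeR), and 17 of the 18 were among them. A fold above 2 left 5 and a test against a fold of 1.2 left 3. The fit over 31 cortical sub-regions called 35, with 16 of the 18 (42.9% higher in STG). The calls leaned on the pairing: without the animal block 3 genes remained of the 18, CARTPT, CYP26B1 and COBLL1, 2 of the listed genes were called, and the cortical contrasts fell to 94 genes in STG and 236 in ITG. With OTG and TPG as the reference, STG had 323 genes and ITG 239. Other size factors and filters each gave 18.

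Leaving out 1 animal gave 4 to 53 calls between STG and ITG, and 2 to 14 listed genes. The calls were 9 without animal 2, 11 without 3, 7 without 4, 6 without 6, 4 without 7, 7 without 10 and 53 without 11. By sex it gave 0 to 28 genes, 28 without animal 11, and DESeq2 gave 84. CARTPT and CYP26B1 were called under all 16 alternatives and CHRNA6 under 3. No named gene changed direction. The cause of these shifts was not tested. Depth limits CLDN20, STX19, NPR1 and CHRNA6 most.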
